A study of Bos grunniens and Bos grunniens x Bos taurus with 6 samples.

Results

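MSS51, SMYD1 and their relatives SMYD2, SMYD3, SMYD4 and SMYD5 encode proteins with a MYND zinc finger, a small domain through which proteins bind proline-rich partners. For each name, the gene identifier with the most reads among the transcripts carrying that symbol was taken, and the reads of all its transcripts were summed in each library. These 6 genes, of 31044 in the deposited table, were selected on the between-group difference of MSS51, which was known from an earlier look at the same libraries, and on family membership. The between-group levels of all 6 are therefore descriptions of chosen genes, and no p-value of a change in level is printed for them. Their calls are given only beside the share over all genes or transcripts tested. The p-values of transcript usage, which did not enter the choice, are given.

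MSS51, also called ZMYND17, is a mitochondrial protein of skeletal muscle named after a yeast protein that activates translation of a cytochrome c oxidase subunit. In mice it is found mainly in fast glycolytic muscle, its transcript falls when myostatin signalling is blocked, and its loss alters muscle metabolism. The SMYD proteins join the MYND finger to a SET domain and transfer methyl groups to lysines of histones and other proteins. SMYD1 acts in heart and skeletal muscle, where in mice and zebrafish it is needed for sarcomere assembly, and SMYD2 methylates the chaperone HSP90 as well as p53 and RB.

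The study compared the longissimus dorsi, the long back muscle, of cattle-yak and of yak by full-length nanopore sequencing of PCR-amplified cDNA. Cattle-yak are hybrids of Bos grunniens and Bos taurus (3 libraries), and yak are Bos grunniens (3 libraries). The sources used here do not give sex, age, feeding, batch or the direction of the cross. The labels do not say that the libraries came from separate animals, so errors and p-values speak of sample spread only, and that spread could be technical.

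Each library held 2366057 to 2769106 assigned reads in cattle-yak and 2350851 to 2502603 in yak. Levels below are read counts relative to the library total (CPM) after scaling by the trimmed mean of M values (TMM), which corrects for a few abundant transcripts. The 8 skeletal muscle markers found among the named genes summed to 70189 to 78213 CPM in cattle-yak and 97277 to 101490 CPM in yak, while MYH6, a myosin heavy chain of heart muscle, averaged 14.8 ± 6.29 CPM in cattle-yak and 6.35 ± 0.61 CPM in yak (SD, n = 3 each). The libraries therefore carried a muscle profile. The summed muscle markers were lower in all 3 cattle-yak libraries, but the single genes went both ways: edgeR called MYH2 and MB lower and DES higher, and 5 of the 8 did not pass.

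MSS51 was the member that differed most. It had 29, 20 and 37 reads in the cattle-yak libraries, against 325, 316 and 399 reads in the yak libraries. The scaled levels were 11.5, 8.03 and 13.6 CPM in cattle-yak and 144, 138 and 180 CPM in yak. All cattle-yak libraries lay far below all yak libraries, and the spread within each group was small beside the gap between them. The means were 11.03 ± 2.80 CPM in cattle-yak and 154 ± 22.5 CPM in yak (SD, n = 3 each).

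On the log2 scale the change of MSS51 was -3.79 ± 0.23 (SE), with a 95% interval of -4.28 to -3.31, a fitted level 13.8-fold lower in cattle-yak. Ordered from the lowest fold change, MSS51 stood at place 5 of the 7504 genes that passed the filter on low counts. In bulk muscle, fewer fibres that carry a transcript and less transcript per fibre cannot be told apart. The muscle marker sum given above also moved with the groups, by far less than MSS51, and its part in the result was not tested.

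SMYD1 partners with skNAC, a muscle form of the nascent polypeptide associated complex, and is a regulator of myofibril assembly. It had 73, 83 and 107 reads in cattle-yak, against 280, 280 and 302 reads in yak. Its levels were 28.9, 33.3 and 39.3 CPM in cattle-yak and 124, 122 and 136 CPM in yak. The groups did not overlap, and the yak libraries were close to each other. The means were 33.8 ± 5.21 CPM in cattle-yak and 128 ± 7.45 CPM in yak (SD, n = 3 each), a log2 change of -1.91 ± 0.18 (SE; 95% interval -2.30 to -1.52) and a fitted level 3.76-fold lower in cattle-yak.

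SMYD2 is the widely expressed member that also acts in the cytoplasm, where with HSP90 it associates with titin in the sarcomere. It had 133, 124 and 143 reads in cattle-yak, against 246, 222 and 191 reads in yak. Its levels were 52.6, 49.8 and 52.5 CPM in cattle-yak and 109, 97.0 and 86.0 CPM in yak. The groups again did not overlap, and here the yak libraries were the more spread. The means were 51.7 ± 1.60 CPM in cattle-yak and 97.4 ± 11.5 CPM in yak (SD, n = 3 each), a log2 change of -0.91 ± 0.17 (SE; 95% interval -1.28 to -0.55) and a fitted level 1.88-fold lower in cattle-yak.

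**Figure D1:**
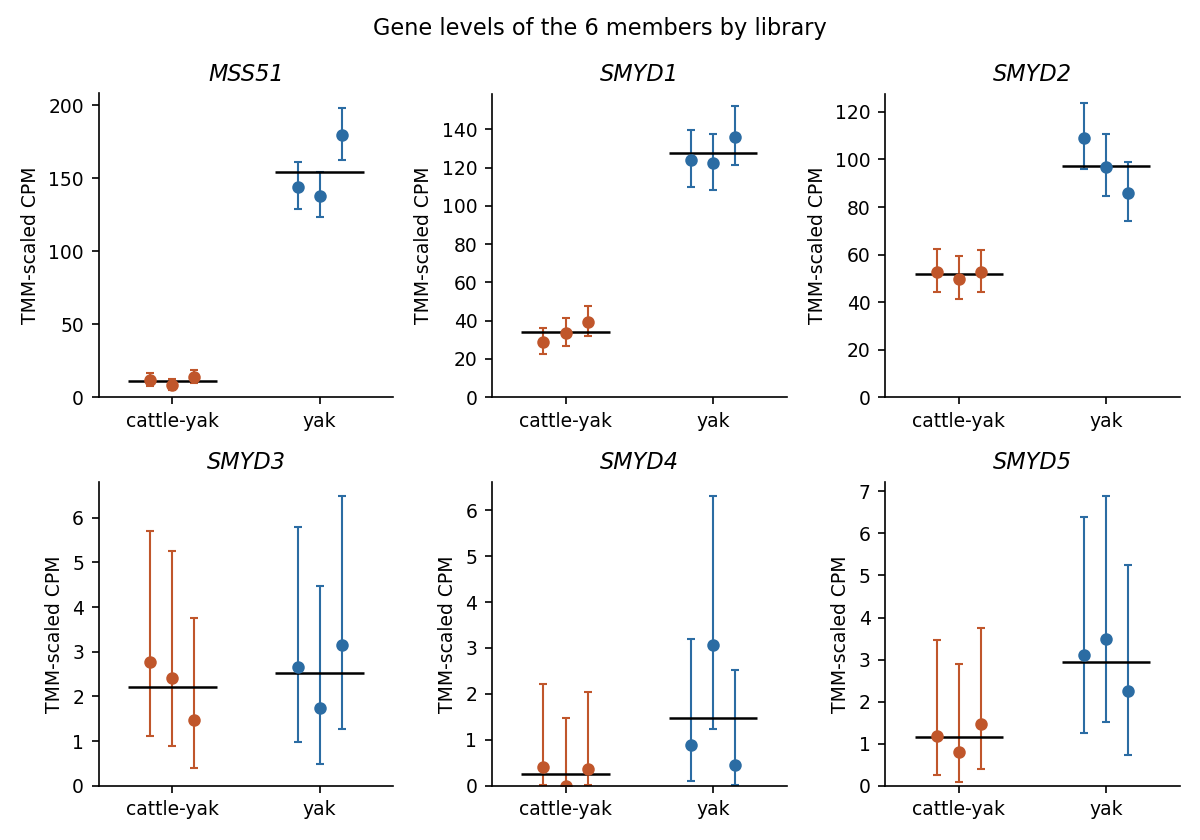
Scaled level (CPM) of each of the 6 members in the 3 cattle-yak and 3 yak libraries; points are libraries, vertical bars exact Poisson 95% intervals of the reads (counting error only), and horizontal lines group means. MSS51, SMYD1 and SMYD2 lay lower in every cattle-yak library than in any yak library, and the intervals of SMYD3, SMYD4 and SMYD5 overlapped between the groups.

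SMYD3, SMYD4 and SMYD5 were at the edge of detection and did not pass the filter on low counts. SMYD3, which methylates histones and the kinase MAP3K2, had 7, 6 and 4 reads in cattle-yak and 6, 4 and 7 reads in yak, so the groups overlapped. The ratio of the summed scaled levels, cattle-yak over yak, was 0.874, with a counting interval of 0.419 to 1.82. A change of SMYD3 smaller than these bounds was not detectable at this depth.

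SMYD5, for which methylation of histone H4 has been described, had 3, 2 and 4 reads in cattle-yak and 7, 8 and 5 reads in yak. The groups did not overlap, at a ratio of 0.393 (0.158 to 0.904). SMYD4, studied for its role in heart development in zebrafish, had 1, 0 and 1 reads in cattle-yak and 2, 7 and 1 reads in yak. Its 10 yak reads came mostly from yak library 2; the log2 ratio of means was -2.53 with that library and -1.39 without it. These intervals cover counting error only, and reads amplified by PCR without molecular identifiers are not independent molecules.

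Of the 6 members, 3 passed the filter, and edgeR's quasi-likelihood test called all 3 lower in cattle-yak at an adjusted p under 0.05. Over all 7504 genes tested, 12.6% were called in either direction, 6.18% lower and 6.45% higher in cattle-yak. With no filter on low counts, the same test called MSS51, SMYD1 and SMYD2 and none of SMYD3, SMYD4 and SMYD5, against 4.56% of 31044 genes in either direction and 2.5% lower in cattle-yak. The groups did not overlap for 33% of the genes tested and did so with cattle-yak lower for 16.1%. Since the members were picked with the difference known, nothing is read from these counts.

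Among the 3 tested members, the spread between replicates differed by gene and group. The coefficient of variation of MSS51 was 25.4% in cattle-yak and 14.6% in yak. That of SMYD1 was 15.4% in cattle-yak and 5.84% in yak, and that of SMYD2 was 3.10% in cattle-yak and 11.9% in yak. Divided by its degrees of freedom, the chi-square of the MSS51 reads against equal levels was 1.83 in cattle-yak and 7.39 in yak, so the yak libraries differed beyond counting error, with yak library 3 the highest.

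The 3 tested members did not keep their proportions. The reads of MSS51 per read of SMYD1 in the same library were 0.397, 0.241 and 0.346 in cattle-yak and 1.16, 1.13 and 1.32 in yak, a log2 difference of -1.90. The reads of SMYD1 per read of SMYD2 were 0.549, 0.669 and 0.748 in cattle-yak and 1.14, 1.26 and 1.58 in yak, a log2 difference of -1.02. The reads of MSS51 per read of SMYD2 were 0.218, 0.161 and 0.259 in cattle-yak and 1.32, 1.42 and 2.09 in yak, a log2 difference of -2.92. In each of these ratios every cattle-yak library lay below every yak library. The last ratio is the product of those before it, so it adds nothing separate. The members were selected on this contrast, so the ratios only describe them. These within-library ratios do not depend on the scaling of the libraries, and a comparison of their sizes between genes would need transcript lengths, which were not used.

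The members were assembled into many transcripts. The table lists 122 transcripts for the 6 genes, of which 4 are reference transcripts and 118 were assembled from the reads. MSS51 has 25, SMYD1 42, SMYD2 45, SMYD3 2, SMYD4 3 and SMYD5 5. For MSS51 and SMYD1 the yak libraries held more reads and also showed more transcripts. For MSS51, 8, 10 and 6 transcripts were seen in the cattle-yak libraries and 23, 23 and 20 in the yak libraries. Within a group the numbers did not follow the reads. Cattle-yak library 3 had 37 MSS51 reads and showed 6 transcripts, and cattle-yak library 2 had 20 reads and showed 10. For SMYD1 the numbers were 16, 22 and 17 in cattle-yak and 26, 26 and 25 in yak.

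All 25 MSS51 transcripts had a lower mean in cattle-yak than in yak. Of the 11 MSS51 transcripts with at least 10 reads over the 6 libraries, the groups did not overlap in any of the 11. The same held for 9 of 12 such transcripts of SMYD1 and 4 of 13 of SMYD2. Over all 64402 transcripts with as many reads, the groups did not overlap for 24.9% and did so with cattle-yak lower for 12.4%; the members were selected on this contrast, so nothing is read from these shares. The most abundant, TALONT000881074, had 16, 7 and 21 reads in cattle-yak, against 169, 178 and 257 reads in yak. Its log2 change was -3.95 ± 0.32 (SE), close to that of the gene. The reference transcript ENSBGRT00000046994 had 4, 2 and 4 reads in cattle-yak and 54, 43 and 53 in yak, a log2 change of -4.03 ± 0.38. TALONT000881085 had 3, 4 and 7 reads in cattle-yak and 39, 29 and 37 in yak, a log2 change of -3.05 ± 0.39. These assembled and reference forms of MSS51 were thus all lower in cattle-yak, where the reference form rested on 10 reads.

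SMYD1 is represented by assembled transcripts alone. TALONT001164410 had 21, 18 and 33 reads in cattle-yak and 67, 57 and 81 in yak, a log2 change of -1.69 ± 0.29. TALONT001164413 had 13, 15 and 18 reads in cattle-yak and 68, 77 and 84 in yak, a log2 change of -2.48 ± 0.27. The groups did not overlap for either transcript. TALONT001164412, TALONT001164454 and TALONT001164421 had log2 changes of -2.48 ± 0.41, -1.80 ± 0.39 and -2.02 ± 0.53 (SE).

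The SMYD2 transcripts were less uniform. TALONT000334074 had 37, 34 and 47 reads in cattle-yak and 93, 73 and 73 in yak, a log2 change of -1.20 ± 0.25. TALONT000334102 had 6, 5 and 7 reads in cattle-yak and 23, 22 and 13 in yak, a log2 change of -1.84 ± 0.40. For both, every cattle-yak library was lower than every yak library. TALONT000334076 had 32, 37 and 30 reads in cattle-yak and 39, 49 and 40 in yak, a log2 change of -0.54 ± 0.27. TALONT000334087, assigned to the gene without a symbol of its own, had 16, 19 and 12 reads in cattle-yak and 21, 22 and 10 in yak, a log2 change of -0.34 ± 0.39, and here the groups overlapped.

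**Figure D2:**
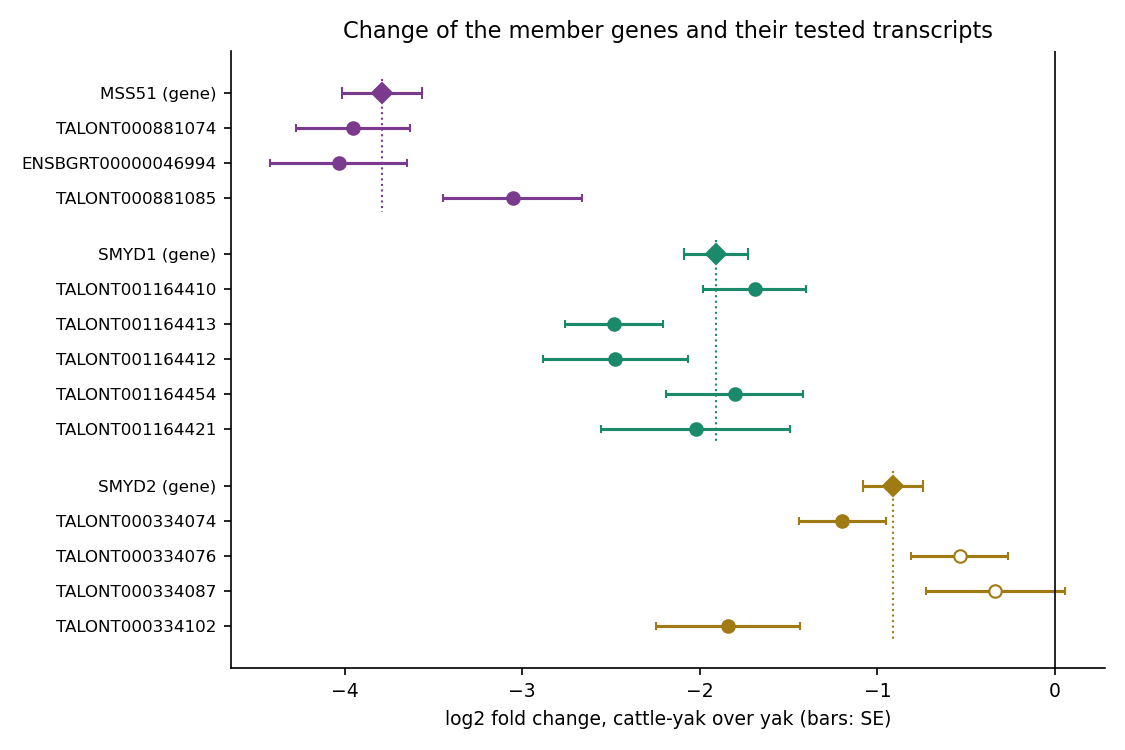
log2 fold change, cattle-yak over yak, of MSS51, SMYD1 and SMYD2 (diamonds) and of their 12 tested transcripts (circles); bars are standard errors, dotted lines mark the gene value, and open circles the 2 SMYD2 transcripts not called. All 12 transcript values were negative, from -4.03 for a transcript of MSS51 to -0.34 for one of SMYD2.

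In the transcript fit, 12 of the 122 member transcripts passed the filter, and edgeR called 10 of them lower and 0 higher at an adjusted p under 0.05; DESeq2 called 9 lower and 0 higher, and all 12 changes were negative. Over all 15804 transcripts tested, 18.5% were called in either direction and 8.86% lower in cattle-yak. Some member transcripts passed the filter through their yak reads alone. One was ENSBGRT00000046994, with 4, 2 and 4 reads in cattle-yak and 54, 43 and 53 in yak. The members were also selected on this contrast, so nothing is read from these counts. The 2 not called were TALONT000334076 and TALONT000334087 of SMYD2. The untested transcripts of the 6 members held 248 reads in cattle-yak and 601 reads in yak.

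Transcript usage, the share of a gene's reads that each of its transcripts takes, did not enter the choice of the members. The edgeR usage test gave an adjusted p of 0.467 for MSS51, 0.433 for SMYD1 and 0.0785 for SMYD2, so no member passed, while 8.62% of the 1821 genes tested did. The unadjusted p was under 0.05 for SMYD2 alone, at 0.00978. TALONT000881074 took 49.0 ± 12.1% of the MSS51 reads in cattle-yak and 57.6 ± 6.30% in yak (SD, n = 3 each). With 20 to 37 MSS51 reads in a cattle-yak library, the shares are wide: the exact 95% interval in cattle-yak library 2 was 15.4% to 59.2%.

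In SMYD1, TALONT001164413 took 17.8%, 18.1% and 16.8% of the reads in cattle-yak and 24.3%, 27.5% and 27.8% in yak. In SMYD2, TALONT000334102 took 4.51%, 4.03% and 4.90% of the reads in cattle-yak and 9.35%, 9.91% and 6.81% in yak. Both shares were lower in every cattle-yak library than in any yak library, although neither gene passed the usage test, and both transcripts were singled out after their values were seen. Of the 15 leading transcripts of MSS51, SMYD1 and SMYD2, 5 from each, the shares of 12 overlapped between the groups, and the other 3, these and TALONT000334074 of SMYD2, were lower in cattle-yak. The failure to pass does not show that usage was alike.

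**Figure D3:**
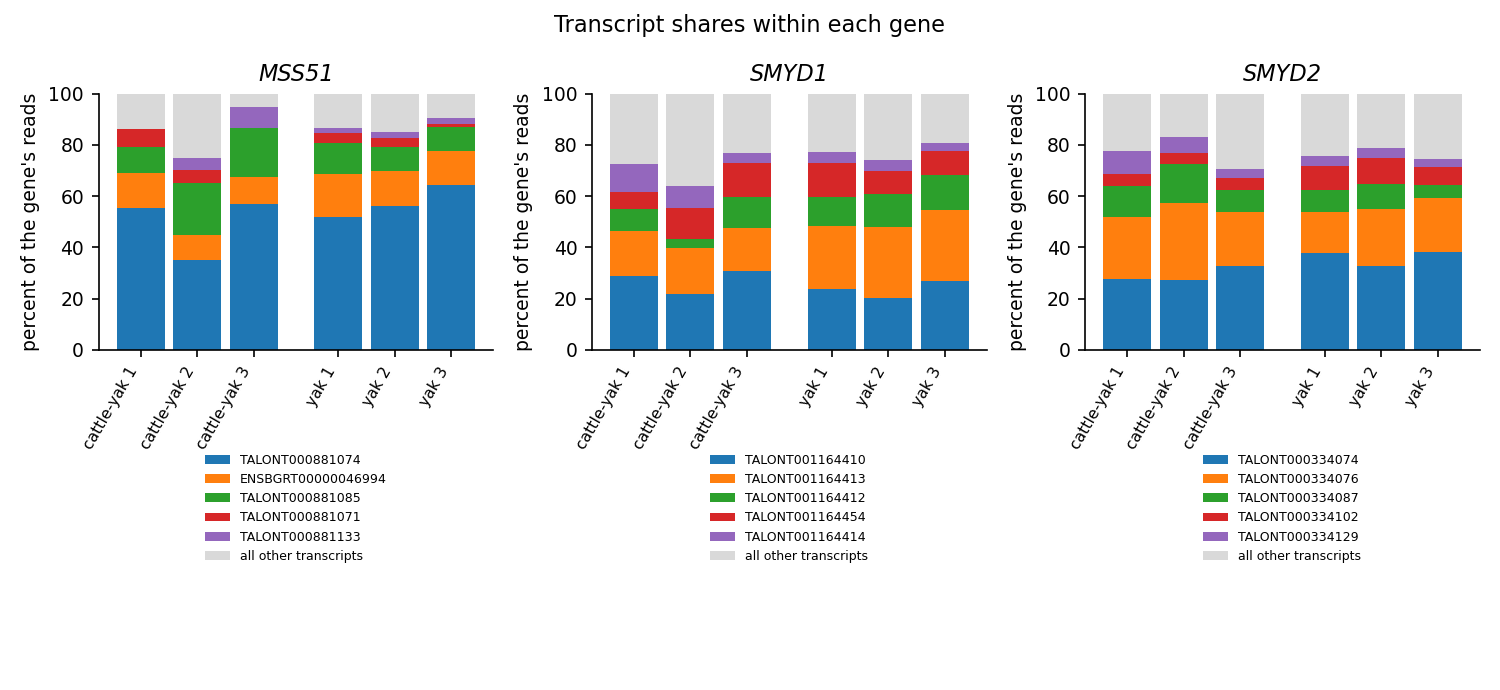
Percent of the reads of MSS51, SMYD1 and SMYD2 in each library taken by the 5 transcripts with most reads and by all others together; the 3 bars at the left of each panel are cattle-yak and the 3 at the right yak. The leading MSS51 transcript ranged from 35.0% to 56.8% in cattle-yak and from 52.0% to 64.4% in yak.

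The deposited annotation names the species of the best protein match of each transcript; such a match is a property of the assembled sequence in a database and does not tell a cattle from a yak allele. Transcripts matched to Bos taurus held 19.2 ± 5.61% of the MSS51 reads in cattle-yak and 13.1 ± 0.39% in yak (SD, n = 3 each). For SMYD1 they held 29.9 ± 2.97% in cattle-yak and 43.4 ± 4.27% in yak. For SMYD2 they held 79.7 ± 1.47% in cattle-yak and 79.8 ± 3.93% in yak. The mean Bos taurus share was thus higher in cattle-yak for MSS51, on few reads, lower for SMYD1 and nearly equal for SMYD2. These differences were not tested.

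Among 4531 tested genes with a mean of at least 10 CPM, the profiles nearest to MSS51 over the 6 libraries were looked up by the root mean square difference of log2 levels, each gene centred on its own mean. The nearest was an assembled locus without a name, TALONG000023098, at 0.436. SELENOW, a small selenoprotein abundant in muscle, was next at 0.453, with 56.2, 83.5 and 85.6 CPM in cattle-yak and 599.7, 605 and 672 CPM in yak (log2 change -3.06 ± 0.19). It was followed by the unnamed TALONG000081387 at 0.606. STBD1, a glycogen-binding protein, stood at 0.677 (log2 change -2.48 ± 0.21), and EPDR1, an ependymin-related secreted protein, at 0.704 (-2.66 ± 0.30). All 5 were lower in every cattle-yak library than in any yak library, which the measure of likeness brings about.

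For SMYD1 the nearest profiles were closer, at 0.150 to 0.242. They were those of ST6GALNAC2, a sialyltransferase, at -1.86 ± 0.26 on the log2 scale, AKAP6, a muscle anchor of protein kinase A, at -1.97 ± 0.26, and TAMM41, a mitochondrial enzyme of the cardiolipin pathway, at -1.92 ± 0.31. KIF22, a kinesin, stood at -1.96 ± 0.21 and CMBL, a hydrolase, at -1.65 ± 0.18. AKAP6 had 7.12, 6.43 and 6.98 CPM in cattle-yak, against 29.3, 26.2 and 25.7 CPM in yak.

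**Figure D4:**
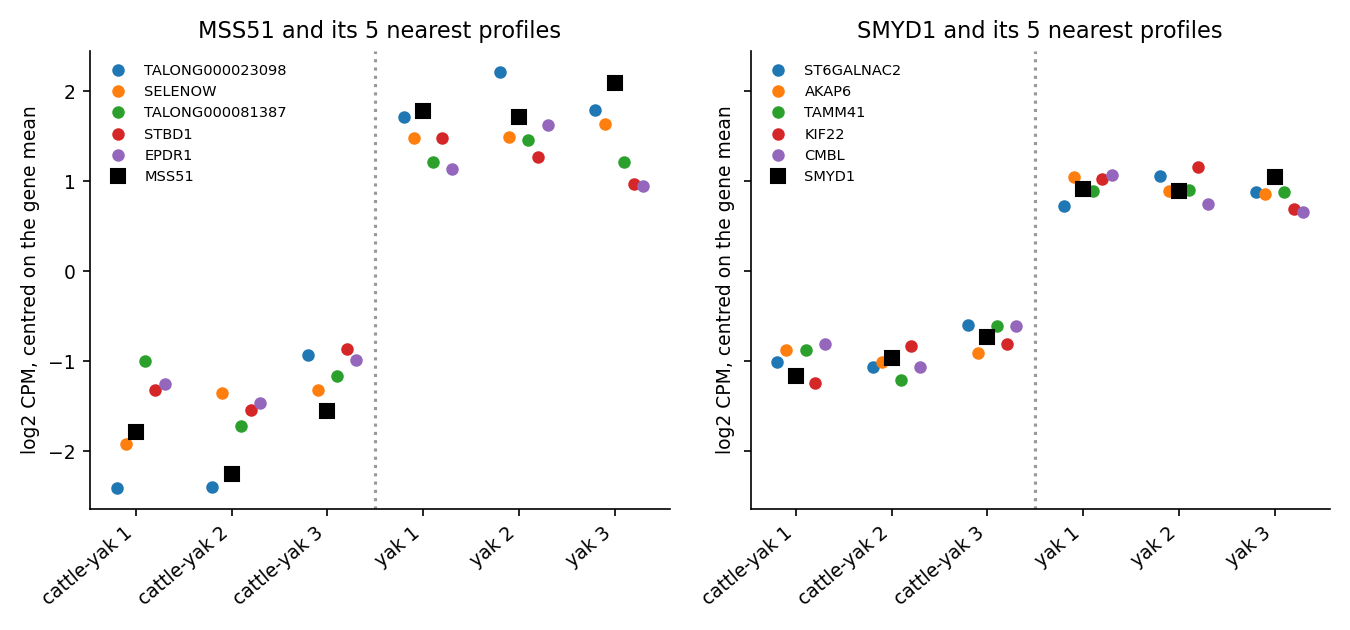
log2 level (CPM), centred on each gene's mean over the 6 libraries, of MSS51 (left panel, squares) and SMYD1 (right panel, squares) with the 5 genes of nearest profile (circles), in the 3 cattle-yak and 3 yak libraries; circles are shifted sideways for visibility. The root mean square difference was 0.436 to 0.704 for the MSS51 set and 0.150 to 0.242 for the SMYD1 set.

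The other genes of these families and pathways were taken from lists, and their changes were read against a median log2 change of 0.02 over all genes tested. Beside their calls stands the share over all genes tested: edgeR called 12.6%, 6.18% lower and 6.45% higher in cattle-yak. Of 18 genes listed as other MYND finger genes, 4 were tested and 0 passed in edgeR, with a median of 0.31; at an unadjusted p under 0.05 there was 1, lower, and DESeq2 called 0. EGLN1, the oxygen-sensing prolyl hydroxylase, had 27.0 ± 6.90 CPM in cattle-yak and 23.0 ± 4.68 CPM in yak (SD, n = 3 each; log2 change 0.23 ± 0.25, edgeR adjusted p = 0.600). RUNX1, which has no MYND finger, stood in this list and was not among the named genes. With 4 genes tested, the list says little of the wider MYND family.

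Of 47 other lysine, histidine and arginine methyltransferases, 22 were tested, 2 were lower, 0 were higher and 20 did not pass, with a median of 0.10. In edgeR, 2 were higher and 4 lower at an unadjusted p under 0.05, and DESeq2 called 0 higher and 2 lower. METTL21C, a muscle lysine methyltransferase, fell to 1.98, 2.01 and 0.367 CPM in cattle-yak, against 8.87, 10.05 and 8.11 CPM in yak (log2 change -2.62 ± 0.49, edgeR adjusted p = 0.00384). These levels rest on 5, 5 and 1 reads in cattle-yak and 20, 23 and 18 reads in yak. The cattle-yak levels were thus near the edge of detection, and the gene passed the filter on low counts through its yak reads. CARM1, an arginine methyltransferase, fell to 5.56 ± 1.40 CPM in cattle-yak, against 13.9 ± 2.77 CPM in yak (SD, n = 3 each; log2 change -1.32 ± 0.33, edgeR adjusted p = 0.0180). The CARM1 call was lost without cattle-yak library 2, without yak library 3 and with counts summed by symbol. SETD7, a SET domain methyltransferase, had 165 ± 57.8 CPM in cattle-yak and 101 ± 22.1 CPM in yak and did not pass (log2 change 0.71 ± 0.27, edgeR adjusted p = 0.111); its symbol rests on 30.1% of its reads, and it passed without cattle-yak library 3 (adjusted p = 0.0138).

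Of 31 partners of SMYD1 and SMYD2 and genes of myosin folding, 25 were tested, 4 were higher, 2 were lower and 19 did not pass, with a median of 0.19. Over all genes tested, edgeR called 6.45% higher and 6.18% lower. In this list 8 were higher and 2 lower at an unadjusted p under 0.05 in edgeR, and DESeq2 called 4 higher and 2 lower. The list was chosen with earlier results known, and the difference from the overall share was not tested. TRIM63, the ubiquitin ligase MuRF1, rose to 403, 463 and 322 CPM in cattle-yak, against 118, 66.8 and 161 CPM in yak (log2 change 1.78 ± 0.29, edgeR adjusted p = 0.00375). UNC45B, the myosin chaperone, fell to 64.9, 90.0 and 136 CPM in cattle-yak, against 165, 243 and 211 CPM in yak (log2 change -1.09 ± 0.25, edgeR adjusted p = 0.0170). Titin, TTN, rose by 0.64 ± 0.17 on the log2 scale (edgeR adjusted p = 0.0293). The UNC45B call was lost without cattle-yak library 2, yak library 2 or yak library 3, and the TTN call without any library other than cattle-yak library 3 and with no filter on low counts.

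HSP90AA1, a gene of the chaperone HSP90 that SMYD2 methylates, did not pass, at 1075 ± 190 CPM in cattle-yak and 837 ± 33.7 CPM in yak (log2 change 0.36 ± 0.17, edgeR adjusted p = 0.178). HSP90AB1, also of this list and named after its values were seen, did not pass either. It had 687 ± 54.6 CPM in cattle-yak and 508 ± 23.0 CPM in yak (log2 change 0.44 ± 0.15, edgeR adjusted p = 0.0723). For both genes every cattle-yak library lay above every yak library. The remaining calls of this list, named after their values were seen, were FKBP5, an HSP90 co-chaperone, at 2.20 ± 0.27, MYOM3, a protein of the sarcomere's M band, at 1.55 ± 0.41, and DNAJB1, a co-chaperone of HSP70, at -2.42 ± 0.55 on the log2 scale. The name DNAJB1 rests on 22.4% of the reads of its gene. The MYOM3 and DNAJB1 calls were each lost under 6 alternatives, most of them a library left out.

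MSS51 is tied to myostatin and to cytochrome c oxidase by its background, so both pathways were read. Of 33 myostatin and TGF-beta genes, 12 were tested and 1 was lower, with a median of 0.06. This was FSTL1, a follistatin-like protein, at -1.07 ± 0.33 (edgeR adjusted p = 0.0493), a call lost under 12 alternatives, among them DESeq2, which called 0 genes of this list. DCN, the proteoglycan decorin, was the most abundant that did not pass, at 230 ± 69.3 CPM in cattle-yak and 221 ± 39.2 CPM in yak (SD, n = 3 each). MSTN, myostatin itself, had 2, 1 and 3 reads in cattle-yak and 5, 25 and 14 reads in yak, too few for the filter. Its yak libraries were all higher than its cattle-yak libraries, and differed widely among themselves.

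Of 41 genes of complex IV, its assembly and the translation of its subunit COX1, 36 were tested, 2 were lower, 0 were higher and 34 did not pass, with a median of -0.28. In edgeR, 1 was higher and 11 lower at an unadjusted p under 0.05, and DESeq2 called 0 higher and 2 lower. COX6C, a structural subunit, fell to 375 ± 14.6 CPM in cattle-yak, against 662 ± 66.7 CPM in yak (SD, n = 3 each; log2 change -0.82 ± 0.15, edgeR adjusted p = 0.00384). COX16, an assembly factor, fell to 46.9 ± 1.74 CPM in cattle-yak, against 85.2 ± 17.4 CPM in yak (SD, n = 3 each; log2 change -0.86 ± 0.19, edgeR adjusted p = 0.00940). NDUFA4, the most abundant that did not pass, changed by -0.36 ± 0.16 on the log2 scale, and its name rests on 3.74% of its reads. The 2 calls were several times smaller than the change of MSS51.

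MSS51 marks fast muscle in mice, so fibre type genes were set beside it. Of 18 fast fibre genes, 15 were tested and 3 were lower, with a median of -0.21. Over all genes tested, edgeR called 6.18% lower and 6.45% higher. In this list 1 was higher and 4 lower at an unadjusted p under 0.05 in edgeR, and DESeq2 called 0 higher and 3 lower. CASQ1, the calcium store protein calsequestrin of fast fibres, fell to 2879, 2034 and 3063 CPM in cattle-yak, against 5588, 4699 and 6217 CPM in yak (log2 change -1.05 ± 0.19, edgeR adjusted p = 0.00290). MYH2, the myosin heavy chain of type IIA fibres, changed by -0.66 ± 0.15 and ATP2A1, the fast calcium pump, by -0.69 ± 0.20 (edgeR adjusted p = 0.0135 and 0.0335). The MYH2 call was lost without yak library 2, and the ATP2A1 call without cattle-yak library 2, yak library 1 or yak library 3 and with library size alone. MYLPF, the fast regulatory light chain, did not pass, at -0.09 ± 0.17, and its sign turned with library size alone.

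MYH1, the myosin heavy chain of type IIX fibres, named after its values were seen, went the other way. It had 2895, 2314 and 3114 CPM in cattle-yak, against 652, 644 and 1792 CPM in yak, so that every cattle-yak library lay above every yak library. It did not pass in edgeR (log2 change 1.43 ± 0.43, adjusted p = 0.0825) but passed in limma-voom (adjusted p = 0.0104) and in edgeR without yak library 3 (adjusted p = 0.000113). The myosin heavy chain genes are close copies of each other, and how the authors' counting shared reads between them is not known here.

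Of 15 slow fibre genes, 13 were tested, 2 were higher, 2 were lower and 9 did not pass, with a median of 0.02. Over all genes tested, edgeR called 6.18% lower and 6.45% higher. In this list 3 were higher and 2 lower at an unadjusted p under 0.05 in edgeR, and DESeq2 called 2 higher and 2 lower. MYL6B, a slow essential light chain, rose by 1.17 ± 0.19 (edgeR adjusted p = 0.00157), while FHL1, a LIM protein of the sarcomere, and MYBPC1, slow myosin-binding protein C, fell by 1.16 and 1.10 on the log2 scale (edgeR adjusted p = 0.000380 and 0.000506). The other higher gene, named after its values were seen, was MYOZ2, a Z-disc protein of slow fibres, at 0.80 ± 0.19, a call lost without yak library 1 or yak library 2. MYL2, the most abundant that did not pass, changed by 0.13 ± 0.17. In edgeR the called genes lay on both sides among the slow fibre genes and on the lower side among the fast ones. The limma-voom fit also called MYH1 higher among the fast genes and MYL3 higher among the slow ones. MYL3, named after its values were seen, changed by 1.35 in that fit (limma-voom adjusted p = 0.0376). The difference between the lists was not tested.

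**Figure D5:**
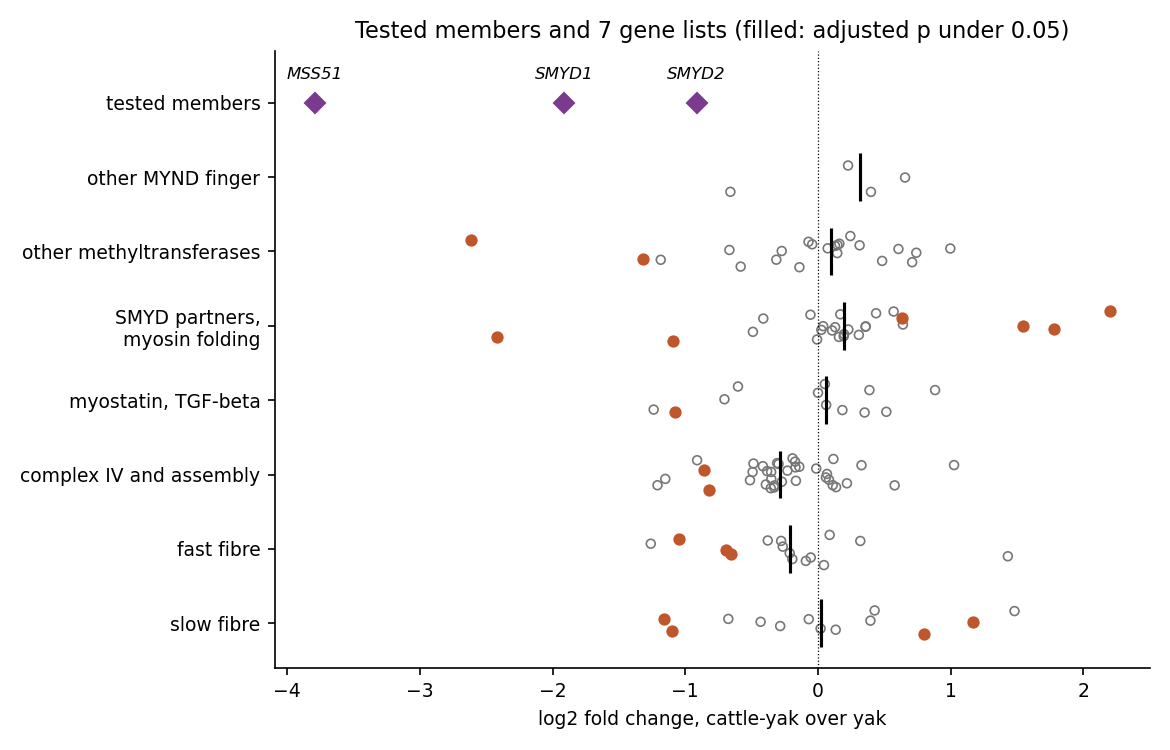
log2 fold change, cattle-yak over yak, of the 3 tested members (diamonds) and of each tested gene in 7 lists (circles; filled where the edgeR adjusted p is under 0.05); black bars are list medians and the dotted line is 0. MSS51 at -3.79 lay below every gene of these lists, and the list medians lay between -0.28 and 0.31.

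Markers of other cells were measured in the same fit, in which edgeR called 12.6% of all genes tested. Fibroblast and matrix genes summed to 177 to 311 CPM in cattle-yak and 295 to 380 CPM in yak, with 3 of 6 tested genes lower, COL3A1, COL1A2 and LUM, and CLEC3B higher. Endothelial genes summed to 56.2 to 114 CPM in cattle-yak and 53.7 to 71.9 CPM in yak, and smooth muscle genes to 137 to 181 CPM in cattle-yak and 142 to 176 CPM in yak, with 0 of 5 tested genes called in each by edgeR or DESeq2 and 0 at an unadjusted p under 0.05. Macrophage and leukocyte genes summed to 315 to 1914 CPM in cattle-yak and 441 to 611 CPM in yak. Nearly all of this was CD74, at 309 to 1886 CPM in cattle-yak and 437 to 599.6 CPM in yak. Adipocyte genes summed to 8.08 to 25.7 CPM in cattle-yak and 20.1 to 26.1 CPM in yak. Satellite cell genes reached at most 5.14 CPM in cattle-yak and 7.21 CPM in yak. Erythroid genes summed to 0.367 to 2.37 CPM in cattle-yak and 2.70 to 25.3 CPM in yak. Of these lists 3 of 6 adipocyte, 2 of 5 satellite cell, 4 of 6 erythroid and 4 of 6 heart muscle genes were not among the named genes, and 0 of the matched genes had no read in any library. The heart gene MYH6 was called higher (log2 change 1.21 ± 0.37, edgeR adjusted p = 0.0452), a call lost under 11 alternatives. The erythroid sums were lower in every cattle-yak library, by a narrow margin. They rested on 9 reads in cattle-yak and 104 reads in yak. The matrix sums were mostly lower with overlapping ranges. The part of the erythroid and matrix sums in the MSS51 result was not tested.

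The 4 genes beside MSS51 in the order of the RefSeq annotation of assembly Bosgru_T2T1.0, named after their values were seen, were set beside it. PPP3CB, a calcineurin subunit, had 13.2 ± 1.499 CPM in cattle-yak and 13.6 ± 1.24 CPM in yak (SD, n = 3 each; log2 change -0.05 ± 0.27, edgeR adjusted p = 0.937). ANXA7, an annexin, had 31.3 ± 4.86 CPM in cattle-yak and 53.0 ± 7.65 CPM in yak (log2 change -0.76 ± 0.20, edgeR adjusted p = 0.0253). Leaving out cattle-yak library 2 or yak library 3, or scaling by library size alone, ended the ANXA7 call. USP54 had 9, 6 and 7 reads in cattle-yak and 1, 2 and 3 in yak, and CFAP70 had 1, 4 and 3 reads in cattle-yak and 0 in each yak library. USP54 and CFAP70 had too few reads to be tested.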

How the data were processed

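Total RNA of longissimus dorsi was made into cDNA-PCR nanopore libraries, per the labels' protocols. The authors deposited a table of read counts and CPM for 179856 transcripts, 6986 reference and 172870 assembled; the deposited CPM equal the counts over their library total within 0.005. Tools listed by the submitters' processing notes are fastp, minimap2 and GSNAP; the sources used here give neither genome build nor counting software. All value columns were mapped to a sample by name. Counts were summed by gene identifier; 61 transcripts without one (at most 0.00249% of a library) stayed out. A gene carries a symbol held by at least 50% of its symbol-bearing reads and 2% of all its reads.

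Cattle-yak (n = 3) were compared with yak (n = 3) in edgeR 4.0.16 (R 4.3.3; filterByExpr, TMM, robust quasi-likelihood, Benjamini-Hochberg adjustment over all 7504 genes or 15804 transcripts tested, threshold 0.05); 948 genes, 2924 transcripts and 157 genes by usage (diffSpliceDGE, transcripts of at least 5% of a gene) passed. A count of 3 corresponds to 1.08 to 1.28 CPM. The scripts were checked on simulated counts. Named were the 6 members, their leading transcripts, the 5 nearest profiles of MSS51 and SMYD1, MSTN, and from each list up to 3 of the most abundant genes that passed and 1 that did not. Members and lists were chosen with earlier results of these data known. Alternatives were library size alone, DESeq2 1.42.0, limma-voom (limma 3.58.1), other filters, a replicate block, each library left out, summing by symbol, and reference or assembled transcripts alone. No coordinates or sequences are given.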

Additional observations from a re-analysis of the deposited data

How the results depend on the processing

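MSS51, SMYD1 and SMYD2 kept their direction and call under every alternative run, 17, 16 and 16 of them, with log2 changes of -3.98 to -3.60, -2.04 to -1.76 and -1.03 to -0.76. The labels do not say whether equal replicate numbers pair the libraries. The correlations of same-numbered deviations were -0.038, -0.016 and 0.017, and those of differently numbered ones -0.035 to 0.050. These values do not tell how the libraries were prepared. With the replicate block the changes were -3.81, -1.92 and -0.91, and 890 genes and 2585 transcripts were called. The block brought SETD7 and MYH1 past the threshold (edgeR adjusted p = 0.0342 and 0.00310) and took DNAJB1, MYOM3 and FSTL1 out of it. Genes called numbered 544 to 997 with a library left out (616 without yak library 2 and 544 without yak library 3) and 194 with reference transcripts alone, where fewer genes are tested. Transcripts called numbered 1651 with a mean of at least 10 CPM and 2053 to 3006 with a library left out; of the members' transcripts, 5 were called at that minimum, where fewer are tested, and 9 to 11 with a library left out. Genes with changed usage numbered 308 with no minimum share, 80 at 10%, 57 by the Simes method and 71 to 145 with a library left out (71 without cattle-yak library 2, 79, 93 and 72 without yak libraries 1, 2 and 3). Usage of SMYD2 ranged from an adjusted p of 0.0617 to 0.882, that of MSS51 from 0.385 to 0.999 and that of SMYD1 from 0.396 to 0.999. With a library left out, the log2 ratio of SMYD4 ran from -2.996 to -1.39, that of SMYD3 from -0.39 to 0.04 and that of SMYD5 from -1.57 to -1.15. The median of the genes tested was 0.18 with library size alone and 0.24 with no filter, where 31044 genes were tested. Of 995 alternatives of single genes, transcripts and usage, 906 kept direction and side; 12 of the 44 called genes and transcripts lost their call at least once and 0 turned. Near-zero changes that turned sign were DCN (-0.061 with no filter, -0.19 with reference transcripts, -0.103 to 0.29 with a library left out), MYLPF (0.063 with library size alone, 0.11 with reference and 0.048 with assembled transcripts, -0.24 to 0.0011 with a library left out), MYL2 (-0.062 with assembled transcripts), PECAM1 (-0.012 to 0.47 with a library left out), TAGLN (0.15 with library size alone, 0.022 at 10 CPM, 0.37 with reference transcripts, -0.22 to 0.087 with a library left out) and PPP3CB (0.11 with library size alone, -0.14 to 0.042 with a library left out); the cause was not tested. Depth limits SMYD3, SMYD4 and SMYD5, which had 34, 12 and 29 reads in all.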

Other observations

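Another locus carries the SMYD1 symbol. TALONG000119014, with the single transcript TALONT001165207, had 1, 4 and 1 reads in cattle-yak and 0, 1 and 0 reads in yak, and was not counted with SMYD1. Within the main SMYD1 gene, 7 transcripts without a symbol held 20 reads in cattle-yak and 32 reads in yak. They were counted in the SMYD1 level, since reads were summed by gene identifier, but none is described as SMYD1. TALONT001164217 is described as carbohydrate-responsive element-binding protein, with 1, 4 and 5 reads in cattle-yak and 2, 3 and 1 in yak. Most of the others are described as hypothetical proteins of Muntiacus.

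TGFB3, a TGF-beta ligand, had 0, 0 and 2 reads in cattle-yak and 4, 8 and 6 reads in yak. DEAF1, a MYND finger transcription factor, had 1, 7 and 5 reads in cattle-yak and 0, 1 and 0 reads in yak. Neither passed the filter on low counts, and both were picked after their values were seen.

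CD74, the 1 tested gene of the macrophage and leukocyte list, had 309, 968 and 1886 CPM in cattle-yak and 437, 439 and 599.6 CPM in yak. It did not pass in edgeR (log2 change 1.10 ± 0.64, adjusted p = 0.339) and passed without cattle-yak library 1 (1.53 ± 0.27, adjusted p = 0.00533). The MSS51 levels of these libraries were 11.5, 8.03 and 13.6 CPM.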
